A study of Arabidopsis thaliana with 12 samples.

Results

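The cysteine-rich receptor-like kinases described here were 10 genes chosen by their locus identifiers, CRK4 (AT3G45860), CRK5 (AT4G23130), CRK6 (AT4G23140), CRK7 (AT4G23150), CRK10 (AT4G23180), CRK11 (AT4G23190), CRK13 (AT4G23210), CRK14 (AT4G23220), CRK36 (AT4G04490) and CRK45 (AT4G11890, also called ARCK1), out of 27371 genes listed in the series. All 10 were found in the expression table. They belong to a family of 45 genes considered here, the other 35 of which serve as comparison. Levels are FPKM, fragments scaled to transcript length and to the mapped fragments of the library, measured by RNA-seq in 12 libraries made from entire seedlings of Arabidopsis Columbia-0 at an age of 14 d. There were 4 groups of 3 libraries, WT mock, WT hrcC, Atg3bp1 mock and Atg3bp1 hrcC. Treated seedlings were sprayed with Pst DC3000 hrcC-, a Pseudomonas syringae strain that lacks a working type III secretion system and so delivers no effectors and were harvested 24 h later. The Atg3bp1 mutant is 1 T-DNA insertion line of AtG3BP1, a homolog of the human stress granule protein G3BP1. Line and genotype therefore cannot be told apart.

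CRKs are plasma membrane kinases that carry, outside the cell, DUF26 domains with a conserved spacing of cysteines, then a single membrane span and a kinase domain in the cytosol. Many of their genes respond to salicylic acid, to pathogens and to reactive oxygen species, and several have been tied to pattern-triggered immunity, the defence that follows recognition of conserved microbial molecules. A strain without type III secretion exposes plants to such molecules while delivering no effector, and the question addressed was how the transcripts of this receptor group stood after that exposure in each genotype.

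Of the members, 7 lay in one array on chromosome 4 that holds 20 CRK genes within 74.2 kb, from CRK5 to CRK24. In TAIR10.1, CRK5 spans chr4:12117491-12120220 on the minus strand, CRK13 chr4:12148673-12151638 and CRK14 chr4:12154091-12156881, both minus. CRK45 lies apart from the array at chr4:7147865-7149942 on the plus strand, CRK36 at chr4:2231717-2234689 on the minus strand, and CRK4 on another chromosome at chr3:16863088-16866261 on the minus strand. The coding sequences of 9 members encode between 658 and 680 residues in 7 exons. CRK45 encodes 354 residues in 6 exons, being a cytoplasmic kinase without the extracellular part. Between pairs of members, the encoded proteins were 40.6 to 75.3% identical over aligned residues, with CRK6 and CRK7 the closest pair at 75.3%.

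The name-giving feature, 3 cysteines with 8 residues between the first pair and 2 between the next, occurred at 2 places in each of the 9 receptor-like members and at 0 places in CRK45. The first occurrence in each is shown as coding sequence from TAIR10.1, 5′ to 3′, with the cysteine codons in capitals, because it is the part of the protein that sets the receptor-like members apart from CRK45.
CRK4: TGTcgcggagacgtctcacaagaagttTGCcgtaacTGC
CRK5: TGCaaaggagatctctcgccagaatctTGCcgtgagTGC
CRK6: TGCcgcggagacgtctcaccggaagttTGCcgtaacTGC
CRK7: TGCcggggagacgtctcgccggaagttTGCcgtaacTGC
CRK10: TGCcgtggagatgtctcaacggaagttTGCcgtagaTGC
CRK11: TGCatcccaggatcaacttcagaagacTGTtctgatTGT
CRK13: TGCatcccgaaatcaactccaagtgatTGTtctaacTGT
CRK14: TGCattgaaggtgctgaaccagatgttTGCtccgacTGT
CRK36: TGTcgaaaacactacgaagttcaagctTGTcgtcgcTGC

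The cysteine codons keep their spacing in all 9 stretches, while the bases between them fall into different series. CRK6 matched CRK7 at 37 of 39 bases, CRK4 at 36 and CRK10 at 34, and it matched CRK11 and CRK13 at 18 each. CRK11 and CRK13 matched each other at 29. CRK36 had 13 bases in common with CRK11 and with CRK13.

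The 300 bases before the annotated start were searched for the W box, the element bound by WRKY factors, as TTGACC or TTGACT on both strands. Such a match was found in 6 of the 10 members and in 22 of the other 35 family genes, against 32.3% of 27443 protein-coding genes. CRK5 and CRK11 each held 4 matches, where 1.6% of all genes held 3 or more. CRK4, CRK6, CRK14 and CRK36 held 2 each, and CRK7, CRK10, CRK13 and CRK45 held 0. The windows of CRK5, CRK4 and CRK13 are given 5′ to 3′ on the gene's own strand, with W-box matches in capitals, as the members with the smallest adjusted p, with the opposite sign, and with the largest change in the responses described below. They cover chr4:12120221-12120520, chr3:16866262-16866561 and chr4:12151639-12151938, all minus strand in TAIR10.1.
CRK5: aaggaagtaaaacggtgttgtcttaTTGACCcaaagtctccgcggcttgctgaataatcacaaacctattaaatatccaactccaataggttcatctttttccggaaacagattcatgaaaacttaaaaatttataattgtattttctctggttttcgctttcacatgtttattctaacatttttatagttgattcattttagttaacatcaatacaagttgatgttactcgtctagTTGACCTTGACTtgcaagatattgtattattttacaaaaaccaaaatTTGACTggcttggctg
CRK4: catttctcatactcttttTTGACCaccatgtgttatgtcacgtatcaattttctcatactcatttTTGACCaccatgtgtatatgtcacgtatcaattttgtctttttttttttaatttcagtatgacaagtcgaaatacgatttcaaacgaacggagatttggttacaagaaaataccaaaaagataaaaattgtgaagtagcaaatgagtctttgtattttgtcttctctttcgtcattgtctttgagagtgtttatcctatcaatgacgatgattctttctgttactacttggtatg
CRK13: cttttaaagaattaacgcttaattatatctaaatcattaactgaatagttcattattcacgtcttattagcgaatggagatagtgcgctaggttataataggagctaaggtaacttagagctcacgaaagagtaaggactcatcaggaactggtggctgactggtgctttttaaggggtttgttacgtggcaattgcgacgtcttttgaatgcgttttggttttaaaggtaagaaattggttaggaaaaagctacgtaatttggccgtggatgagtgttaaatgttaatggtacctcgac

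In CRK5 the matches began 275, 63, 57 and 16 bases before the start, the middle pair directly side by side. CRK4, which had lower values after treatment, held its pair at 282 and 235 bases. CRK13, which had higher values, held no match in this window. A match is a run of letters and no evidence of binding.

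In the seedlings these genes were expressed at low levels. The mean over all libraries was highest for CRK10 at 3.89 FPKM, then CRK11 at 3.32 FPKM, CRK13 at 1.32 FPKM and CRK45 at 1.08 FPKM. The other 6 members stayed under 1 FPKM, CRK14 just under it at 0.946 FPKM, followed by CRK5 at 0.556 FPKM, CRK4 at 0.423 FPKM, CRK6 at 0.324 FPKM, CRK36 at 0.185 FPKM and CRK7 at 0.0881 FPKM. Each neighbouring pair in this order overlapped in its libraries. CRK10 stood above 53.7% of the 23870 genes with a value above 0 in some library, and CRK7 above 10.5% of them. In WT mock, CRK10 and CRK11 lay clear of the rest. CRK10, whose gene is also known as RLK4, measured 3.08 ± 0.379 FPKM (SD, n = 3), and CRK11, known as RLK3 and induced by oxidative stress, measured 1.94 ± 0.857 FPKM (SD, n = 3). Next in WT mock came CRK4 at 0.603 ± 0.225 FPKM (SD, n = 3), whose libraries did not overlap those of CRK11 or CRK13.

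The table gives FPKM without counts or the mapped fragments of each library, so no counting error was computed for levels as low as these. Per library the FPKM summed to between 428556 and 494126, of which a single gene, AT2G01021, took 4.03 to 31.55%. Its share was 4.03 to 8.33% in WT mock, 6.88 to 8.51% in WT hrcC, 11.37 to 12.57% in Atg3bp1 mock and 5.73 to 31.55% in Atg3bp1 hrcC. Upper-quartile factors ranged from 0.866 to 1.199. The targeted gene went against the labels. AtG3BP1 measured 0.018 to 0.426 FPKM in the 6 libraries labelled WT and 11.4 to 18.4 FPKM in the 6 libraries labelled Atg3bp1, so genotypes below mean the labels and every direction between them rests on the labels as given. Leaf markers were abundant, and the summed FPKM of 3 flower markers did not exceed 1.49 in any library.

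**Figure D1:**
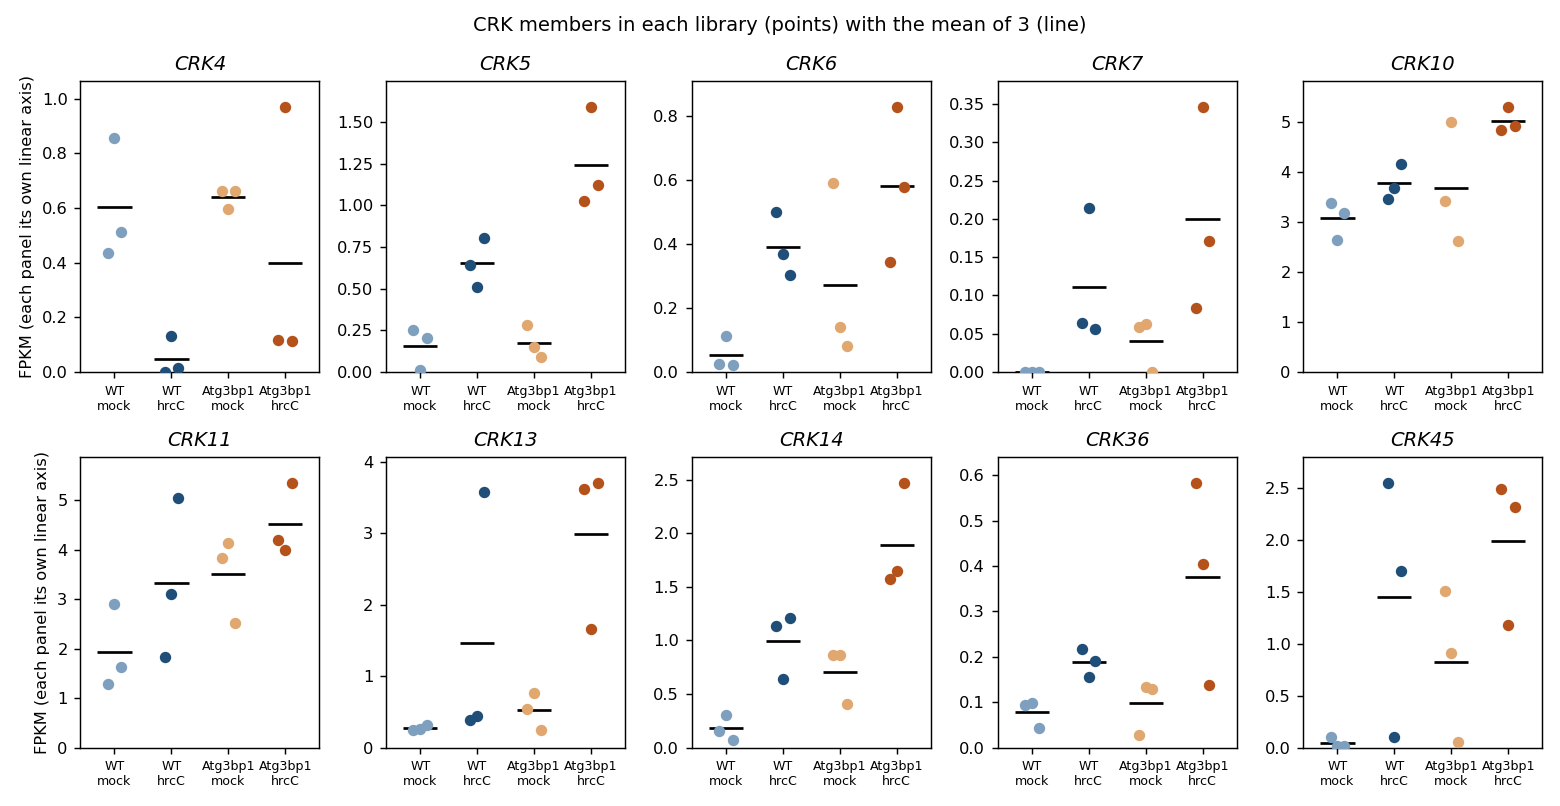
FPKM of each member (vertical axes, linear, one scale per panel) in the 3 libraries of each group, with the mean as a line. CRK5 sits at 0.0102 to 0.279 FPKM in the 6 mock libraries and at 0.509 to 1.59 FPKM in the 6 hrcC libraries, while CRK4 is lower in 5 of the 6 hrcC libraries than in any mock library.

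After Pst hrcC-, most members had higher values in both genotypes, and CRK4 lower ones. The smallest adjusted p among the members was that of CRK5, a kinase whose overexpression triggers cell death. CRK5 measured 0.250, 0.0102 and 0.205 FPKM in WT mock and 0.644, 0.509 and 0.805 FPKM in WT hrcC. In Atg3bp1 it measured 0.279, 0.152 and 0.0898 FPKM in mock and 1.03, 1.59 and 1.12 FPKM in hrcC. All 6 treated libraries were above all 6 mock libraries, which held for CRK5 and CRK36 among the members and for 2.67% of the 23870 genes. In a linear model over those genes on the log2(FPKM + 1) scale, with libraries rescaled to a common upper quartile, the mean response of CRK5 over both genotypes was 0.73 ± 0.0834 (SE, limma, adjusted p = 4.10e-04). It was 0.97 ± 0.118 in Atg3bp1 (adjusted p = 0.00133) and 0.50 ± 0.118 in WT (adjusted p = 0.0587).

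CRK14 changed in the same direction. Its libraries read 0.159, 0.308 and 0.0746 FPKM in WT mock and 1.14, 0.645 and 1.21 FPKM in WT hrcC. In Atg3bp1 they read 0.863, 0.862 and 0.405 FPKM in mock and 1.57, 1.65 and 2.47 FPKM in hrcC. The groups did not overlap within either genotype, although the mock libraries labelled Atg3bp1 reached into the range of WT hrcC. The mean response was 0.76 ± 0.123 on the log2(FPKM + 1) scale (SE, limma, adjusted p = 0.00395), with 0.80 ± 0.174 in Atg3bp1 (adjusted p = 0.0369) and 0.72 ± 0.174 in WT (adjusted p = 0.0606). With replicate terms fitted separately within each treatment, the treatment difference was taken at replicate 1 only, 0.48 for CRK5 and 0.60 for CRK14. That setting does not estimate the mean response over all replicates. Both CRK5 and CRK14 were over 2-fold apart in FPKM between treated and mock means of each genotype, but short of 2-fold on this scale, where adding 1 FPKM compresses values under 1.

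CRK13, whose overexpression raises salicylic acid and resistance to bacteria, was the member past both thresholds of the design, an adjusted p of at most 0.05 and 2-fold, among genes averaging 1 FPKM or more. It measured 0.246, 0.257 and 0.312 FPKM in WT mock and 0.391, 0.438 and 3.57 FPKM in WT hrcC. In Atg3bp1 it measured 0.548, 0.771 and 0.252 FPKM in mock and 3.62, 1.67 and 3.70 FPKM in hrcC. Within WT a single treated library was far above mock, while in Atg3bp1 all 3 were. The mean response was 1.07 ± 0.285 (SE, limma, adjusted p = 0.0357 over 17158 genes). This call was narrow. It was lost over all 23870 genes (limma, adjusted p = 0.061) and without 9 of the 12 libraries in turn. WT hrcC replicate 3 was among those 9 (0.78 on the log2 scale). At replicate 1 only, with the replicate terms within each treatment, the difference of CRK13 was 0.83. Of the 100-base windows of its transcript, 13.6% also occur with at most 2 mismatches in CRK22, whose level was 6.19 to 12.1 FPKM, and the authors kept 1 alignment per read, so some reads of the pair may be assigned to either.

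Among the 4 members averaging 1 FPKM or more, CRK13 was thus 1 called higher, where 3.28% of the 17158 genes tested were. CRK13 and CRK45 passed that filter through their treated libraries, so this count carries no weight for the group. Counted over all 10 without the filter, 0 passed both thresholds, where 2.31% of genes were called higher, and 2 passed the adjusted p alone and were higher, CRK5 and CRK14, against 4.20% of genes. At an unadjusted p of at most 0.05, 8 of the 10 were higher in the mean response, where 8.71% of genes were, and 1 was lower, where 11.3% were. The member that did not reach this was CRK11. The median difference of the 10 was 0.40, beside -0.04 over all 23870 genes. The members were chosen with earlier results of these data known. Their shares beside those of all genes, here and below, therefore describe the members and do not test the group.

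**Figure D2:**
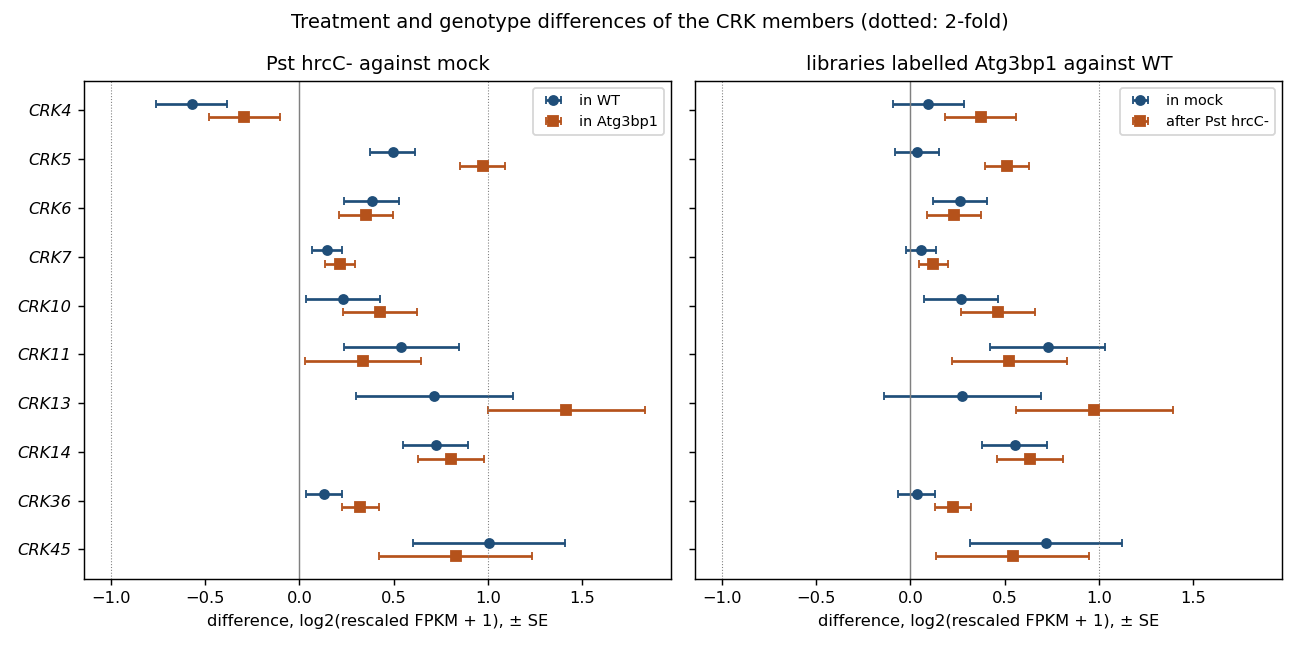
Differences on the log2(rescaled FPKM + 1) scale (horizontal axes) with their SE for each member, fitted over all 23870 genes. On the left, 9 of 10 members lie above 0 in both genotypes after Pst hrcC- and CRK4 lies below in both. On the right, all 10 lie above 0 in the libraries labelled Atg3bp1 in both treatments, several by less than their SE.

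CRK45 and CRK36 encode partners that bind each other and restrain responses to abscisic acid, and CRK36 also binds the immune kinase BIK1. CRK45 measured 0.107, 0.013 and 0.0194 FPKM in WT mock and 2.55, 0.104 and 1.70 FPKM in WT hrcC. In Atg3bp1 it measured 1.51, 0.910 and 0.0575 FPKM in mock and 2.49, 1.19 and 2.32 FPKM in hrcC. One library per group departed in WT hrcC and Atg3bp1 mock, and the ranges of treated and mock libraries overlapped in both genotypes. The mean response was 0.92 ± 0.279 (SE, limma, adjusted p = 0.0614) and passed both thresholds without WT hrcC replicate 2 (1.15, adjusted p = 0.00835) or without Atg3bp1 mock replicate 1 (1.06, adjusted p = 0.047). CRK36 was at 0.0283 to 0.135 FPKM in mock and 0.139 to 0.582 FPKM after Pst hrcC-. Its mean response was 0.23 ± 0.0684 (SE, limma, adjusted p = 0.0827).

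CRK6 and CRK7, tied to responses to extracellular reactive oxygen, were close to the lower end of what the table holds. CRK6 had a median of 0.0969 FPKM over the mock libraries, from 0.0208 to 0.590, and of 0.434 FPKM over the treated ones, from 0.303 to 0.825. Its ranges did not overlap in WT, and in Atg3bp1 mock replicate 1 stood above 2 of the treated libraries. CRK7 was listed at 0 in all 3 WT mock libraries and in 1 of Atg3bp1 mock, while 9 housekeeping genes were above 0 in every library. After Pst hrcC- it was at 0.0563 to 0.345 FPKM in all 6 libraries. Mean responses were 0.37 ± 0.102 for CRK6 (SE, limma, adjusted p = 0.0619) and 0.18 ± 0.056 for CRK7 (SE, limma, adjusted p = 0.0907). Some of the reads of CRK6 can also come from its neighbours, since 20.0% of its 100-base windows occur in CRK8 or CRK9 with at most 2 mismatches.

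CRK4, which associates with the flagellin receptor FLS2, went the other way. It measured 0.436, 0.859 and 0.514 FPKM in WT mock and 0, 0.132 and 0.0139 FPKM in WT hrcC. In Atg3bp1 it measured 0.663, 0.598 and 0.661 FPKM in mock and 0.118, 0.968 and 0.113 FPKM in hrcC. Thus 5 of 6 treated libraries were below every mock library and Atg3bp1 hrcC replicate 2 was above them all. The mean response was -0.43 ± 0.134 (SE, limma, adjusted p = 0.0901), with -0.57 ± 0.189 in WT (adjusted p = 0.17) and -0.29 ± 0.189 in Atg3bp1 (adjusted p = 0.582).

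CRK10 and CRK11, the most abundant members, did not pass the test. CRK10 measured 3.38, 2.65 and 3.19 FPKM in WT mock and 3.47, 3.69 and 4.17 FPKM in WT hrcC. In Atg3bp1 it measured 3.43, 5.01 and 2.63 FPKM in mock and 4.85, 5.30 and 4.93 FPKM in hrcC. The groups were separate in WT by a narrow margin in the deposited values and overlapped after rescaling, and in Atg3bp1 they overlapped through mock replicate 2. The mean response was 0.33 ± 0.138 (SE, limma, adjusted p = 0.174). For CRK11, from 1.28 to 4.14 FPKM in mock and from 1.84 to 5.34 FPKM after treatment, it was 0.44 ± 0.207 (SE, limma, adjusted p = 0.229).

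Within each genotype, 0 of the 4 members that passed the filter were called, against 3.19% of genes in WT and 3.12% in Atg3bp1. At an unadjusted p of at most 0.05, 1 of these 4 was higher in WT (CRK45), where 9.08% of genes were, and 2 were higher in Atg3bp1 (CRK10 and CRK13), where 7.13% were. CRK13 and CRK45 passed the filter through their treated libraries, so these counts carry no weight for the group. Without the filter and by the adjusted p alone, 0 of the 10 were higher in WT, where 2.18% of genes were, and CRK5 and CRK14 in Atg3bp1, where 2.11% were. By ranges of rescaled values, 6 members were higher in all treated than all mock libraries of WT (CRK5, CRK6, CRK7, CRK13, CRK14 and CRK36), where 7.39% of genes were. CRK4 was lower in all of them, where 7.49% were. In Atg3bp1, 5 were higher (CRK5, CRK7, CRK13, CRK14 and CRK36), where 9.88% of genes were.

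**Figure D3:**
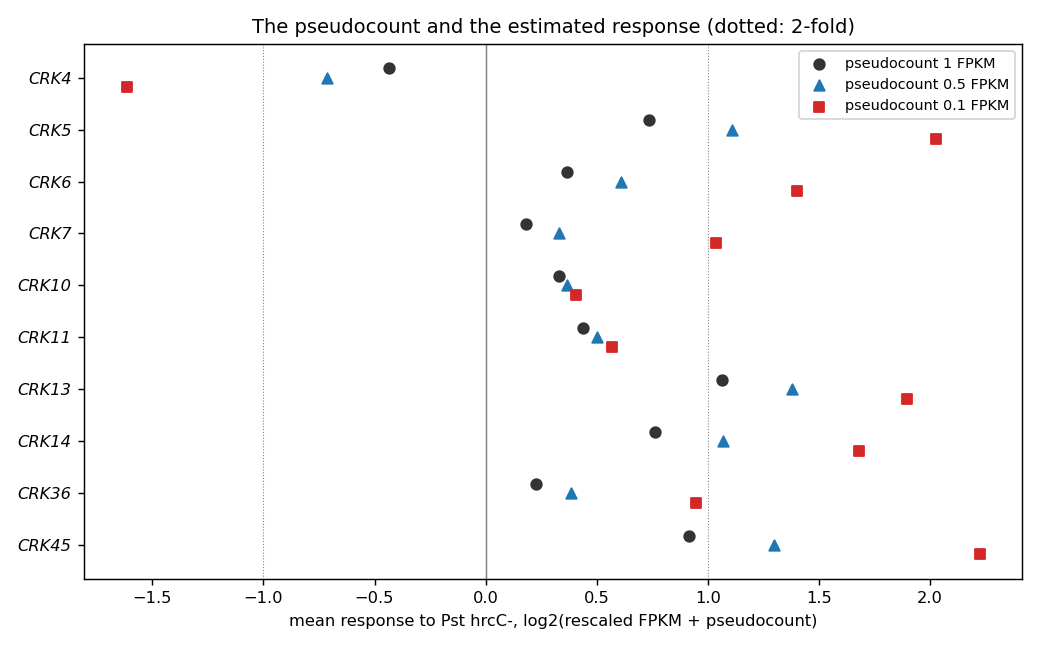
Mean response of each member (horizontal axis, log2 scale) with 1, 0.5 or 0.1 FPKM added before the logarithm. CRK10 and CRK11 barely move, whereas CRK5 goes from 0.73 to 2.03, CRK45 from 0.92 to 2.22 and CRK4 from -0.43 to -1.61.

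For genes with values under 1 FPKM the size of the response therefore depended on what was added before the logarithm. This held too for CRK45 (0.92 with 1 FPKM added, 2.22 with 0.1 FPKM) and CRK13 (1.07 and 1.90). Both passed the filter but had mock means under 1 FPKM. With 0.1 FPKM and no filter, an alternative chosen after seeing the data, 4 members passed both thresholds as higher in the mean response, where 3.07% of genes did. They were CRK5 (2.03), CRK6 (1.40), CRK7 (1.04) and CRK14 (1.68). CRK4 was called lower (-1.61, limma, adjusted p = 0.0389), where 0.779% of genes were. In the single genotypes the calls under this setting were CRK14 in WT (1.99), where 2.17% of genes were called higher, and CRK5 in Atg3bp1 (2.39), where 1.91% were. CRK13 had 1.90 and an adjusted p of 0.05002 in limma, just outside.

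Between genotypes, all 10 members had higher fitted values in the libraries labelled Atg3bp1, in mock as after Pst hrcC-, with medians of 0.27 and 0.49 on the log2(FPKM + 1) scale beside medians of 0.00 over all 23870 genes. In mock, 0 of 4 filtered members were called, where 0.979% of genes were, and CRK11 reached an unadjusted p of 0.0282 (0.73 ± 0.292, SE, limma, adjusted p = 0.181). CRK11 measured 1.28, 2.91 and 1.63 FPKM in WT mock and 3.84, 4.14 and 2.53 FPKM in Atg3bp1 mock. Those libraries overlapped as deposited and were separate after rescaling. The same held for CRK13, and the libraries of CRK14 were separate on both scales, where 13.2% of genes were higher without overlap. CRK14 differed by 0.55 ± 0.174 in mock (SE, limma, adjusted p = 0.14). Over all 10 members without the filter, 2 had an unadjusted p of at most 0.05 and were higher in mock, CRK11 and CRK14, where 10.2% of genes were.

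After Pst hrcC-, 0 of 4 filtered members were called, where 0.0117% of genes were, and the adjusted p was at least 0.904. CRK5, CRK10 and CRK14 were higher in all 3 libraries labelled Atg3bp1 than in all 3 labelled WT, where 4.98% of genes were. CRK5 differed by 0.51 ± 0.118 (SE, limma, adjusted p = 0.541), CRK14 by 0.63 ± 0.174 (adjusted p = 0.635) and CRK10 by 0.46 ± 0.195 (adjusted p = 0.904). Without the filter 5 members had an unadjusted p of at most 0.05 and were higher, where 3.06% of genes were. For the mean of both genotype differences, 0 of 4 were called against 0.664% of genes, and 5 of 10 were higher at an unadjusted p of at most 0.05, where 9.87% of genes were. CRK14 came nearest to the threshold there at 0.59 ± 0.123 (SE, limma, adjusted p = 0.0559).

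The difference between the genotypes' responses, Atg3bp1 minus WT, was called for 0 members and for 0% of genes by limma. At an unadjusted p of at most 0.05 it was higher in 1 of the 10, CRK5, where 1.81% of genes were. The estimate for CRK5 was 0.48 ± 0.167 (SE, limma, adjusted p = 0.967). For CRK13 it was 0.70 ± 0.571 (SE, limma, adjusted p = 0.991) and for CRK45 -0.18 ± 0.559 (adjusted p = 0.999), so the error of the difference was over 0.5 on the log2 scale for both.

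**Figure D4:**
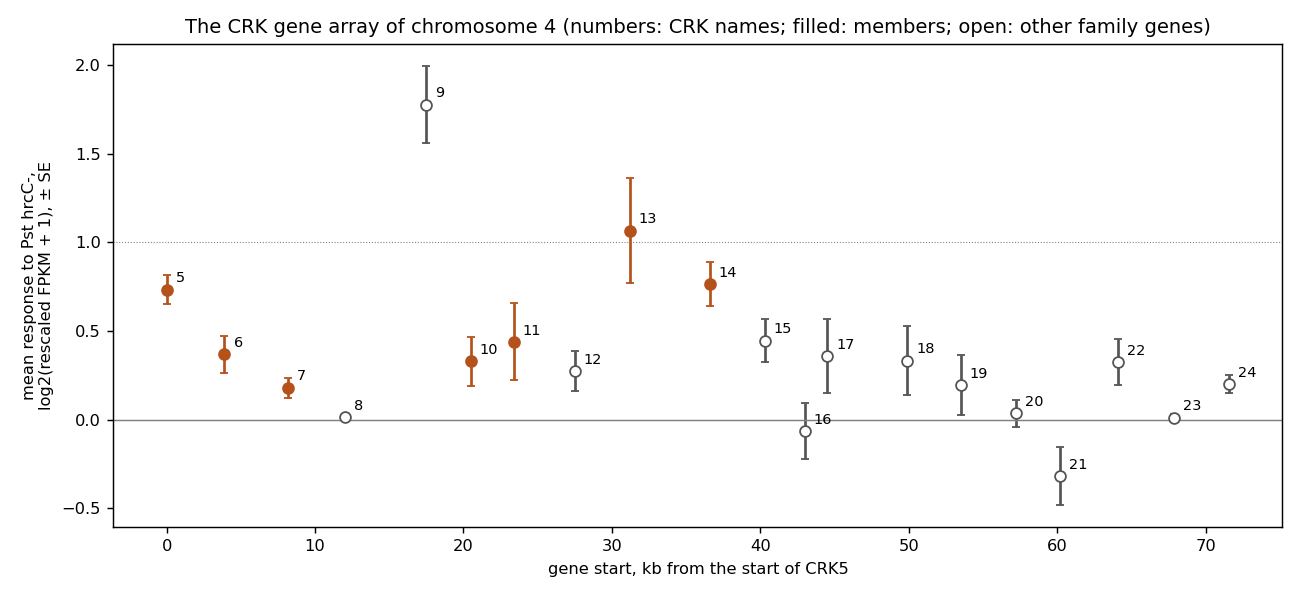
Mean response on the log2(rescaled FPKM + 1) scale with its SE (vertical axis) of the 20 CRK genes in the array of chromosome 4, placed by distance of the gene start from that of CRK5 (horizontal axis, kb). The filled members include CRK13 at 1.07, and CRK9, an open symbol, is highest at 1.78.

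Of the 35 other family genes, 17 passed the filter and 1 of them was called, higher in the mean response. This was CRK9 (AT4G23170), which lies in the array between the members CRK7 and CRK10. It is annotated with 265 residues in 1 exon, shorter than any member. CRK9 measured 2.26, 0.946 and 1.82 FPKM in WT mock and 3.98, 7.03 and 6.07 FPKM in WT hrcC. In Atg3bp1 it measured 1.52, 3.11 and 1.55 FPKM in mock and 11.0, 13.0 and 14.0 FPKM in hrcC. All treated libraries were above all mock libraries. The mean response was 1.78 ± 0.208 (SE, limma, adjusted p = 1.37e-04), with 1.31 ± 0.294 in WT (adjusted p = 0.025, lost without the filter at 0.0562) and 2.24 ± 0.294 in Atg3bp1 (adjusted p = 7.20e-04). Within the array 18 of 20 genes were above 0 in the mean response, where 9650 of 23870 genes were, CRK16 and CRK21 being the others. The 18 include genes with almost no signal, such as CRK23 and CRK8 with means of 0.00587 and 0.0078 FPKM. The 3 most abundant of the other family genes were CRK22, CRK21 and CRK18, with means of 8.58, 8.13 and 7.56 FPKM, each above every member. Without the filter the median of the 33 other family genes above 0 FPKM was 0.07 in the mean response.

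Among 12 surface receptors and signalling partners, such as FLS2, EFR and BAK1, 0 were called in the mean response. At an unadjusted p of at most 0.05, 7 were higher, where 10.1% of the 17158 genes were. EFR averaged 0.628 FPKM in mock and 1.58 FPKM after treatment, so it passed the filter through its treated libraries. Without the filter 6 of the 12 were higher at that p, where 8.71% of genes were. SOBIR1, a co-receptor of receptor-like proteins, was called in the genotype difference in mock (1.45 ± 0.299, SE, limma, adjusted p = 0.0405) and in the mean genotype difference (1.16 ± 0.211, adjusted p = 0.027), higher in the libraries labelled Atg3bp1. The first of these was lost without the filter (adjusted p = 0.0692) and the other was not (adjusted p = 0.0471). Of 13 filtered genes of salicylic acid synthesis and signalling, 1 was called, PR2, a glucanase gene that marks salicylic acid signalling. Its mean response was 2.46 ± 0.298 (SE, limma, adjusted p = 1.78e-04), with 2.06 in WT and 2.87 in Atg3bp1. PR2 averaged 0.673 FPKM in mock and 9.98 FPKM after treatment, so it passed the filter through its treated libraries. In the mean genotype difference 0 of the 13 were called and 12 lay above 0, with a median of 0.43 beside -0.02 over the 17158 genes. PR1, 1 of the 13, averaged 0.158 FPKM in WT mock and 0.341 FPKM in WT hrcC. It passed the filter through the libraries labelled Atg3bp1. Without the filter 20 of 21 genes of this list lay above 0, with a median of 0.13 beside -0.0022 over the 23870 genes. Of 5 filtered PDLP genes, which encode DUF26 proteins of plasmodesmata without a kinase, 0 were called. PDLP2 had the smallest adjusted p of them (-0.74 ± 0.196, SE, limma, adjusted p = 0.0335).

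The genes outside the family whose levels over the 12 libraries were most like the mean profile of CRK10, CRK11, CRK13 and CRK45 were PDF1.4 (AT1G19610), with a Pearson correlation of 0.972, AT2G26440 with 0.953, AT4G22470 with 0.946, WAKL6 (AT1G16110) with 0.944 and AT4G20860 with 0.944. PDF1.4, a defensin gene, measured 2.34 ± 0.885 FPKM in WT mock, 14.1 ± 14.5 FPKM in WT hrcC, 9.04 ± 5.22 FPKM in Atg3bp1 mock and 30.9 ± 15.0 FPKM in Atg3bp1 hrcC (SD, n = 3). WAKL6, a wall-associated kinase-like gene, had 0.992 ± 0.0787, 2.75 ± 1.46, 2.31 ± 0.124 and 4.23 ± 0.366 FPKM in the same order (SD, n = 3). These 5 were picked for their likeness, and the correlations are a description over libraries that share groups and treatment.

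Some markers of organs moved with the treatment as well. The 3 leaf markers summed to 16010 to 27770 FPKM in the mock libraries and to 10450 to 16980 FPKM in the treated ones. Of the 3, 1 was called, RBCS3B, lower (-1.04, limma, adjusted p = 0.0155, and 0.0704 without the filter). RBCS1A was below 0 without a call (-0.48, limma, adjusted p = 0.125), and CAB3 was above 0 (0.10), also without a call. The 5 root markers summed to 368.3 to 635.6 FPKM and 555.0 to 801.3 FPKM, which was mostly PYK10 (0.96, limma, adjusted p = 7.28e-04). PYK10 was the 1 of these 5 above 0 in the mean response. IRT1 was called lower (-1.85, limma, adjusted p = 0.0288, and 0.0575 without the filter), and CASP1 (-0.72), COBL9 (-0.57) and EXPA7 (-0.35) were below 0 without a call. The 3 guard cell markers summed to 9.46 to 19.6 FPKM and 6.25 to 12.8 FPKM, and 0 of them were called. The flower markers AP3 and AG were at 0 to 0.121 FPKM. In whole seedlings, fewer cells of a type and less RNA per cell cannot be told apart, and the part of organ composition in the members' values was not tested.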

How the data were processed

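The authors prepared stranded mRNA libraries from 3 biological replicates per group, sequenced paired-end reads, used Trimmomatic for trimming and TopHat for alignment to TAIR10, keeping 1 alignment per read, and deposited FPKM per library from Cufflinks. The table held 27371 genes. All 12 columns were assigned by their deposited names. The labels give the mutant as Atg3bp1 only.

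FPKM were divided by a factor that sets the upper quartile (75th percentile of genes above 0 in a library) to a common value, 1 FPKM was added, and log2 values were fitted by limma 3.58.1 in R 4.3.3 with the 4 group means and a variance trend. The 17158 genes averaging 1 FPKM or more were tested, with Benjamini-Hochberg adjustment over all of them, and called at an adjusted p of at most 0.05 and 2-fold. The 6 members below that mean were fitted with all 23870 genes above 0. Fold changes are on the log2(FPKM + 1) scale and understate those of low genes. The fit was tested on simulated data. Replicates are treated as independent, so p-values measure the spread between these samples.

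In mock between genotypes, deviations of same-numbered libraries correlated at 0.375, 0.102 and 0.315, and those of unlike numbers at -0.414 to 0.132. These values do not establish that the numbers pair the samples, and the main fit used no block. Between genotypes after Pst hrcC- same-numbered libraries gave 0.042, 0.430 and 0.105. Between treatments within a genotype same-numbered libraries ran from -0.424 to 0.170. Named genes were all members, the called and the 3 most abundant other family genes, the largest called changes of the other lists and the 5 genes most alike in profile. Members and lists were chosen with earlier results of these data known. Genes, positions and sequences are from the RefSeq annotation of TAIR10.1, read in Python 3.11.15 (pandas 2.3.3, numpy 2.4.6, matplotlib 3.10.9), and proteins were aligned with biopython 1.88. Shared windows came from blastn 2.17.0.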

Additional observations from a re-analysis of the deposited data

How the results depend on the processing

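The number of members called higher in the mean response was 1. It became 0 with a filter at 5 FPKM, with no filter, or with a term for the 3 libraries of high upper-quartile factor. With no filter and 0.1 FPKM added it was 4, and 1 was called lower. Replicate terms within treatment take treatment differences at replicate 1 only, so that setting is left out of these counts. Leaving out each library in turn gave 0 to 2. In the WT response the count of 0 became 1 at an unadjusted p and with no filter and 0.1 FPKM added, and 0 to 1 over the left-out libraries, CRK45 being called without WT hrcC replicate 2. In the Atg3bp1 response it became 1 at an unadjusted p, with the 2 groups fitted alone, and with no filter and 0.1 FPKM added, and 0 to 1 over the left-out libraries, CRK13 being called without WT hrcC replicate 3. The Atg3bp1 response takes no value from that library, which enters the fit only through the spread shared by the groups. The cause of the other changes was not tested. A replicate block over all libraries moved no count of called members. The replicate terms within treatment moved none in the genotype differences or the interaction. Over all alternatives the lowest adjusted p of the mean response was 1.94e-04 for CRK5 and 0.00321 for CRK14 (limma). The highest, 0.106 and 0.0738, came from the replicate terms within treatment, which do not estimate the mean response over all replicates. Without each library in turn the adjusted p was at most 0.00259 for CRK5 and 0.0147 for CRK14. Counts behind levels under 1 FPKM are not given in the table.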
